A study of Rattus norvegicus with 34 samples.

Results

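The UGT2B enzymes measured here were 3 of the 239 gene probes on a 2-colour cDNA array for rat: Ugt2b (printed UGT2B2 in the spot lists), Ugt2b15 (printed UGT2B3) and UGT2B6. The members were found by the names that the spot lists print and by the same grid position on the arrays whose lists carry no such names. RefSeq lists UGT2B2 and UGT2B3 as synonyms of Ugt2b and Ugt2b15, and UGT2B6 matched no entry, so it keeps the printed name. The array carries 5 UGT2B-named probes in all, the other two being Ugt2b35 (printed UGT2B12) and Ugt2b7. In the RefSeq annotation of rat assembly GRCr8, Ugt2b lies on chromosome 14 from 20985449 to 21006267 and Ugt2b15 from 21122866 to 21138450 on the same strand. These genes are close paralogs, so a cDNA probe of any member may also bind transcripts of its neighbours, and each level below belongs to a probe rather than to a proven single transcript.

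UDP-glucuronosyltransferases of the endoplasmic reticulum join glucuronic acid to lipophilic molecules, which makes them soluble enough to leave in bile or urine. The UGT2B branch is best known for steroid hormones, bile acids and many drugs, and the liver is its main site. In rat, UGT2B2 is known as an enzyme that conjugates androsterone and UGT2B3 as an enzyme that conjugates testosterone. Some Wistar rats are known to carry a deletion of UGT2B2, and the sample labels give no genotype at that gene. Many enzymes of this pathway are induced through the xenobiotic receptors CAR and PXR, and the same receptors induce the CYP2B and CYP3A monooxygenases.

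The study gave pregnant Wistar rats vehicle, EMD 82571, a calcium sensitizer, or retinoic acid. The low dose of EMD 82571 was 50 and the high dose 150 mg/kg/day, each given daily from gestational day 6 to day 11 or from day 6 to day 17. Tissue was whole embryo or maternal liver of day 12, and maternal liver, embryo liver or embryo bone of day 20, which makes 15 groups of treatment, tissue and day. Each of the 34 arrays carried treated RNA in Cy5 and vehicle RNA in Cy3, with 4 arrays in the retinoic acid groups of day 12 and 2 in every other group. The labels do not agree on a dose of retinoic acid, and leave unstated if arrays within a group came from separate animals, pools or repeat hybridisations, and if they share vehicle RNA. The submitters' design text speaks of 5 biological replicates for control and 5 for treatment, a number that groups of 2 or 4 arrays do not reach. Replicate numbers used below were given here in the order of the sample records and pair no arrays. The p-values measure only the spread between arrays, which may be technical. Dyes were never swapped, so a dye effect and the treatment effect cannot be told apart in a response, whereas a dye effect common to the arrays cancels in a difference between responses.

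The arrays fell into 3 batches by the leading digits of the array numbers in the labels. Batch A held all day-12 EMD 82571 arrays and retinoic acid replicates 1 and 2 of day 12, batch B held day-12 retinoic acid replicates 3 and 4 and the day-20 retinoic acid arrays of both livers, and batch C held the day-20 EMD 82571 arrays and the retinoic acid arrays of bone. Vehicle spots had a median signal of 1.70 to 4.54 times local background per array and treated spots of 1.26 to 5.24 times, and the number of arrays limits the precision. Between arrays of a group the log2 ratios correlated at 0.50 to 0.98 over 14 pairs of liver arrays and at -0.20 to 0.98 over 11 pairs of whole embryo and bone arrays.

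The stretch just before the gene start is shown for the pair of members that RefSeq annotates, since the results below set the responses of Ugt2b and Ugt2b15 against each other. Each sequence holds the 250 bases upstream of the start, on the plus strand of GRCr8, credited to RefSeq, and the capitals mark the longest run that both share.
Ugt2b, chr14:20985199-20985448: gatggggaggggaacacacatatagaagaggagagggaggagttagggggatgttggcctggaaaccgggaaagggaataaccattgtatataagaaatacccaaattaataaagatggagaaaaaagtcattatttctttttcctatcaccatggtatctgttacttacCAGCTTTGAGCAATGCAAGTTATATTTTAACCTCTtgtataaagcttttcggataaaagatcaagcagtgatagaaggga
Ugt2b15, chr14:21122616-21122865: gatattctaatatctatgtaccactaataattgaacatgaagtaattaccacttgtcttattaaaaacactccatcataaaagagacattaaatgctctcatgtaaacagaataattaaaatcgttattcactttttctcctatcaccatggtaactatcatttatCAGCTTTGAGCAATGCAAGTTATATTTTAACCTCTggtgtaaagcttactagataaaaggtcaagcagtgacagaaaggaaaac
The shared run is 35 bases long and lies 80 to 46 bases before the start in Ugt2b and 84 to 50 bases before it in Ugt2b15. Of 223 aligned bases, 177 were identical (79.4%). Of 9 promoters of the Ugt2b family in the reference table, 3 held the run, namely those of Ugt2b, Ugt2b15 and Ugt2b37, and 4 promoters of the whole table did. The run contains GTTA, any 5 bases and TAAC, the spaced arms of the sequence that the liver factor HNF1 is known to recognise, which reads the same on both strands. This motif stood in 7 of the 9 family promoters and in 78 of all 33469 promoters (0.233%). The nuclear receptor half-site AGGTCA, searched on both strands, was found in the Ugt2b15 window and not in the Ugt2b window, in 2 of the 9 family promoters and in 14.1% of all promoters. A match is a string of letters and not a shown binding site.

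All 3 members were measured most brightly in maternal liver. In the vehicle channel of day 12, the signal over local background of Ugt2b had a lowest value of 2.29, a median of 15.1 and a highest value of 21.6 over 8 arrays. That of Ugt2b15 ran from 4.04 through a median of 31.1 to 40.6, and that of UGT2B6 from 3.07 through 16.9 to 27.3. The lowest values of all 3 came from the dimmer arrays of batch B. In maternal liver of day 20 the medians over 6 arrays were 17.2 for Ugt2b, 28.5 for Ugt2b15 and 11.0 for UGT2B6. Day 20 minus day 12 gave log2 vehicle differences of 0.62, -0.23 and -0.74 in that order, none past the threshold of an adjusted p of 0.05 (0.375, 0.847 and 0.412, limma with array batch as a term), while 10.8% of 232 probes passed. Levels are compared within a probe only, never between probes.

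**Figure D1:**
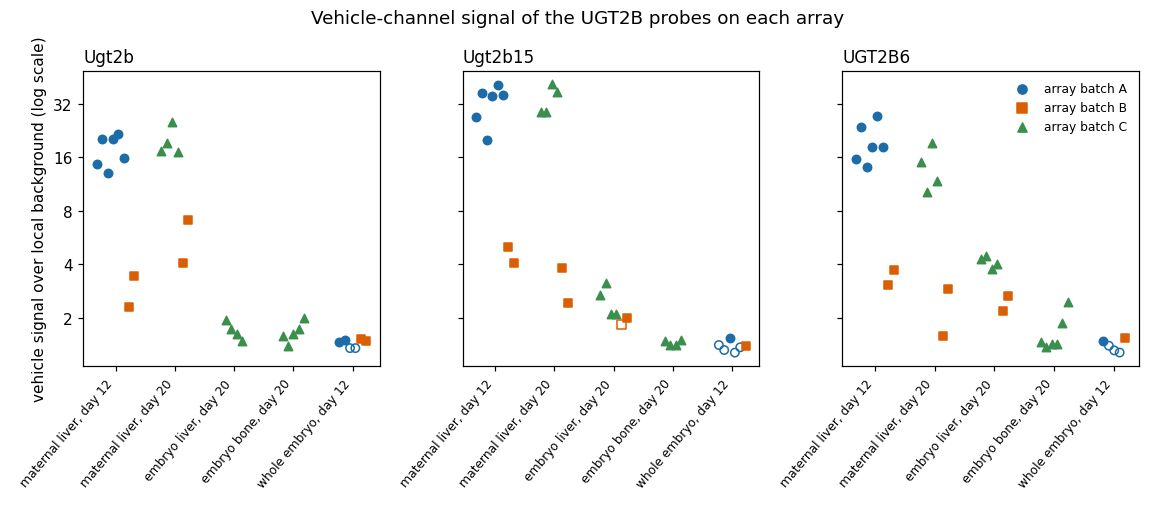
Vehicle-channel signal over local background (log scale, vertical axis) of the 3 members on each array, by tissue and day. Filled points were above local background in the vehicle channel and open points were not, and every maternal liver point was filled.

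Embryo liver separated the members. The median vehicle signal over background over the arrays with a value was 1.67 for Ugt2b, 2.09 for Ugt2b15 and 3.87 for UGT2B6. Against maternal liver of the same day, the vehicle level of Ugt2b was lower by a log2 difference of -4.73 ± 0.333 (SE, 26.5-fold, adjusted p = 2.67e-13) and that of Ugt2b15 by -3.76 ± 0.345 (13.6-fold, adjusted p = 6.23e-11), or by -2.10 within batch B alone (adjusted p = 0.000235). UGT2B6 was lower by -1.62 ± 0.359 (3.08-fold, adjusted p = 0.000279), and by -0.31 within batch B alone (adjusted p = 0.623). In this contrast 50.6% of 239 probes passed. For the non-member Ugt2b35 the same difference was -0.33 ± 0.193 and did not pass (adjusted p = 0.162). All 8 hepatocyte markers on the array were above background in both livers. In this contrast 6 of the 8 were lower in embryo liver, namely Cyp2e1 at -4.92, Cyp7a1 at -1.76, Foxa2 at -1.13, Hnf4a at -0.83, Foxa3 at -0.61 and A2m at -0.41, while Serpina1 at 0.05 and Foxa1 at 0.0022 did not pass. Top2a, a topoisomerase of dividing cells, was higher by 4.40. Among stromal markers Acta2, the smooth muscle actin, was higher by 2.62. Col1a2 and Dcn were also higher, and Bgn and Col3a1 did not pass. Among leukocyte and endothelial markers Itgb2, Flt4 and Flt1 were lower, and Csf1r, Itgal, Kdr and Pecam1 did not pass. Among cartilage and bone markers Mmp9 was higher and Acan lower, and Mmp13, Col2a1 and Spp1 did not pass. The part of these changes in the member levels was not tested. No erythroid marker is on the array, so the blood-forming cells of the embryo liver could not be followed, and in such bulk tissue fewer cells of a type cannot be told apart from less RNA per cell.

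In embryo bone and whole embryo the members were near background, with median vehicle signals over background of 1.63, 1.45 and 1.44 in bone and 1.47, 1.37 and 1.39 in whole embryo for Ugt2b, Ugt2b15 and UGT2B6. In whole embryo, Ugt2b was above background in the vehicle channel on 4 of 6 arrays with a value, Ugt2b15 on 2 of 6 and UGT2B6 on 2 of 5. Against maternal liver of day 12, the fitted difference of whole embryo was -3.55 for Ugt2b, -4.90 for Ugt2b15 and -4.06 for UGT2B6, in a contrast in which 78% of 232 probes passed. Within batch A alone it was -4.13, -5.28 and -4.52, and within batch B alone -2.17, -3.35 and -2.40, so the direction held in both batches while the size, set against a signal mostly at background, did not. Bone minus embryo liver did not pass for Ugt2b (-0.07, adjusted p = 0.856), and bone was lower for Ugt2b15 (-1.79, adjusted p = 9.62e-05) and UGT2B6 (-2.34, adjusted p = 1.83e-06), with 67.8% of 239 probes past the threshold. The 8 hepatocyte markers were above background in these tissues too, with a summed normalized vehicle level of the 7 or 8 markers measured in a group of 1184 to 1675 in whole embryo against 49493 to 68439 in maternal liver of day 12.

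Over the 15 groups the members gave 37 responses with a value on 2 or more arrays, of which 3 passed upwards and 9 downwards (32.4%). Over all probes 23.4% of 3349 such responses passed. Ugt2b accounted for 2 rises and 4 falls of 11, Ugt2b15 for 1 and 2 of 13, and UGT2B6 for 0 and 3 of 13. Of the 12 calls, 6 were in maternal liver, 4 in embryo liver, 1 in bone and 1 in whole embryo. Responses read on 1 array are given below as values with no p, since their spread could come only from other groups. A response is the log2 ratio of treated over vehicle, positive where treated tissue was higher.

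**Figure D2:**
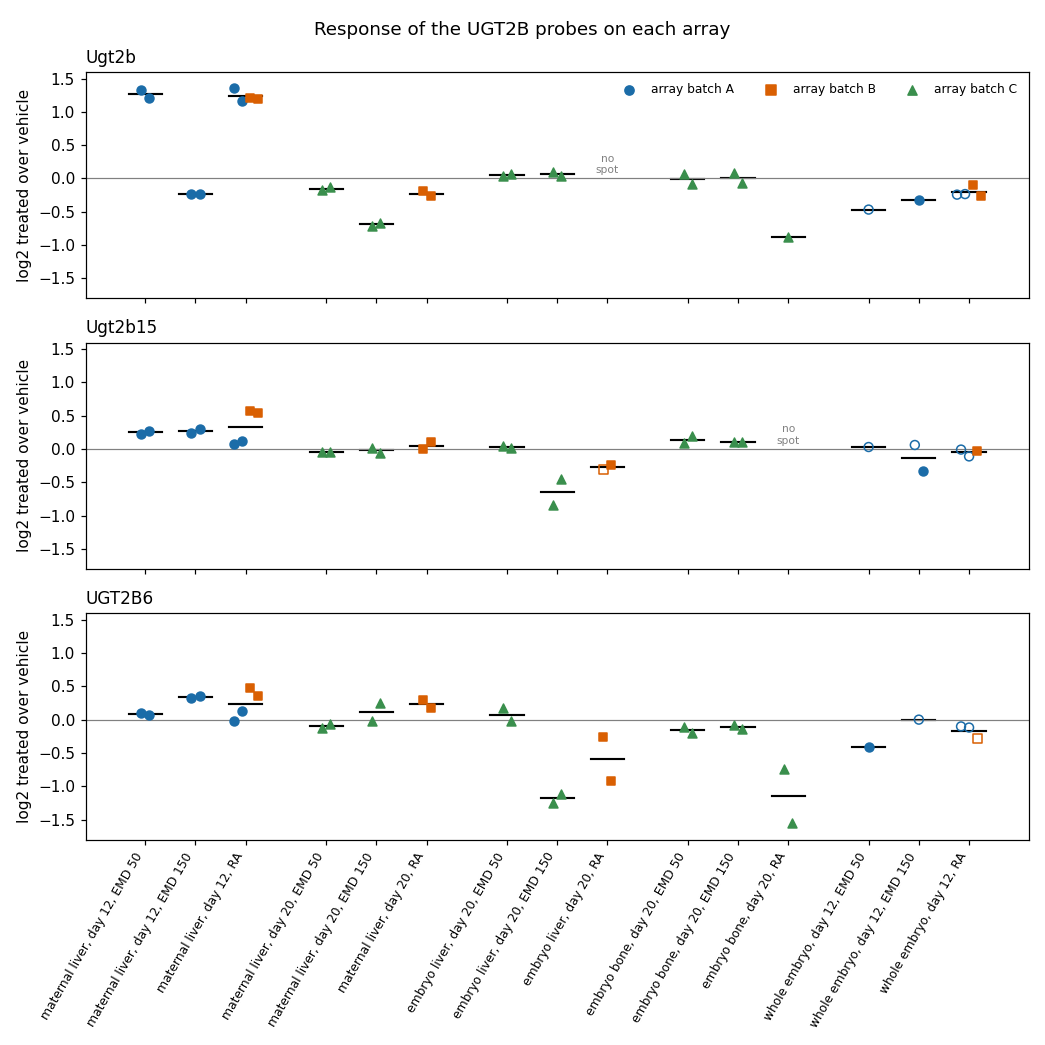
Log2 ratio of treated over vehicle (vertical axis) of Ugt2b, Ugt2b15 and UGT2B6 on each array, by group. Filled points had both channels above background, and the 6 Ugt2b points of maternal liver day 12 at the low dose and under retinoic acid sit between 1.17 and 1.35.

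In maternal liver of day 12, Ugt2b rose under the low dose of EMD 82571 and under retinoic acid, and did not rise under the high dose. The low-dose arrays read 1.32 and 1.21 on the log2 scale, and vehicle signals of 14.6 and 20.2 times background stood beside treated signals of 38.7 and 50.1. Their mean was 1.27 ± 0.0546 (SE, n = 2 arrays), a 2.41-fold rise with an adjusted p of 1.03e-12 by limma. In this group 14.3% of 231 probes passed, and Ugt2b was the only member of the 3 to do so. Retinoic acid gave 1.35 and 1.17 in batch A and 1.20 and 1.19 in batch B, with a mean of 1.23 ± 0.0386 (n = 4, 2.35-fold, limma adjusted p = 3.53e-15), where 28.9% of 232 probes passed. The 4 arrays lay within a narrow band although the vehicle signal was 21.6 and 15.7 times background in batch A and 2.29 and 3.44 times in batch B.

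The high dose gave Ugt2b log2 ratios of -0.24 and -0.24 in the same tissue and on the same batch. The mean of -0.24 ± 0.0546 passed at an adjusted p of 0.00363 by limma, beside 20.7% of 232 probes. That small fall was -0.14 with arrays centred on the median, and -0.02 in the authors' deposited table after centring, neither past the threshold, and the call was also lost without either array. The difference between the doses was far larger than the spread between arrays. High minus low dose was -1.51 ± 0.0772 (95% interval -1.67 to -1.35, limma adjusted p = 2.22e-11), and only 7.79% of 231 probes passed that contrast. Over the 15 alternatives the same difference ran from -1.56 to -1.24 and passed in all 15. High dose minus retinoic acid was -1.47 ± 0.0669 (adjusted p = 9.19e-13), where 13.4% of 232 probes passed. The low dose was not tested against retinoic acid, and their means of 1.27 and 1.23 are given side by side.

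Other enzymes were also read in maternal liver of day 12, and the counts below stand beside the shares over all probes. These shares were 14.3% of 231 probes at the low dose, 20.7% of 232 at the high dose and 28.9% of 232 under retinoic acid. Of the 5 probes of CYP2B and CYP3A, 3 rose at the low dose and 3 at the high dose, among them CYP2B1/2, monooxygenases that serve as markers of CAR activity, with log2 ratios of 2.10 and 5.26. Cyp3a23-3a1, a PXR-inducible monooxygenase, gave 1.76 and 2.91. Of the 8 UGT1 probes, enzymes that conjugate bilirubin and phenols, 2 rose at the low dose and 5 at the high dose. UGT1A1, the bilirubin-conjugating form, gave 0.56 and 0.86, and UGT1A2 gave 0.20 (adjusted p = 0.0787) and 0.89. None of 4 other conjugating enzymes (Nat1, Nat2, Sult1b1 and HSST) passed at either dose. The list medians of CYP2B and CYP3A were 0.48 and 0.75 beside medians of -0.02 and -0.02 over all probes. Under retinoic acid 2 of the 5 CYP2B and CYP3A probes rose, led by Cyp3a9 at 0.68, and UGT1A1 fell by 0.26 while UGT1A5 rose by 0.20. Hepatocyte markers moved as well, 1 up and 1 down of 8 at the low dose, 1 up and 4 down at the high dose, and 3 up and 1 down under retinoic acid. Their summed normalized level ran from 68256 to 68439 in vehicle and from 74916 to 77438 in treated tissue at the low dose, and from 60209 to 63664 and from 58516 to 64658 at the high dose, and their part in the Ugt2b values was not tested.

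Ugt2b15 and UGT2B6 moved little in maternal liver of day 12. The low dose gave Ugt2b15 values of 0.22 and 0.28 and UGT2B6 values of 0.10 and 0.07, and the high dose gave 0.24 and 0.30, and 0.32 and 0.36. None of these groups passed (adjusted p = 0.146, 0.791, 0.0771 and 0.118 in that order, limma), though every array was above 0. The high-dose means of 0.27 for Ugt2b15 and 0.34 for UGT2B6 did pass under several alternatives, for example at 0.40 and 0.45 with arrays centred on the median. High minus low dose was 0.02 for Ugt2b15, with an interval from -0.29 to 0.33, and 0.25 for UGT2B6, with an interval from -0.19 to 0.69. Under retinoic acid Ugt2b15 read 0.08 and 0.13 in batch A and 0.58 and 0.55 in batch B. Its mean of 0.33 ± 0.0743 passed (adjusted p = 0.0023), but within batch A alone it was 0.11 and did not (adjusted p = 0.292), so the batches did not overlap and the call rested on batch B. UGT2B6 showed the same split, with -0.03 and 0.13 in batch A and 0.48 and 0.35 in batch B, and its mean of 0.23 did not pass (adjusted p = 0.108). The sample titles of the retinoic acid arrays also differ between batches A and B, so title and batch cannot be told apart in this split.

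In maternal liver of day 20, Ugt2b fell under the high dose of EMD 82571. The high-dose arrays read -0.71 and -0.66, where vehicle signals of 25.1 and 17.1 times background stood beside treated signals of 14.0 and 9.00. The mean was -0.69 ± 0.0546, a 1.61-fold fall with a limma adjusted p of 4.33e-08, in a group in which 7.11% of 239 probes passed. The low dose gave -0.17 and -0.13, with a mean of -0.15 that did not pass (adjusted p = 0.107), beside 10.1% of 238 probes that did. High minus low dose was -0.53 ± 0.0772 (adjusted p = 0.000401), where 8 of 238 probes passed (3.36%). The difference was -0.99 with no centring and -0.83 in the authors' deposited table after centring, larger values that did not pass. At the high dose the CYP2B and CYP3A list again held 3 rises of 5, with CYP2B1/2 at 0.76, beside a fall of Cyp3a9 to -0.81, and none of the 8 UGT1 probes passed.

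Retinoic acid gave Ugt2b values of -0.19 and -0.26 in maternal liver of day 20, on the dimmer batch B. The mean of -0.23 passed (adjusted p = 0.00685), beside 20.1% of 229 probes, and was lost under 6 of 14 alternatives, among them the omission of either array. The summed normalized level of the hepatocyte markers in this group was 47323 to 52454 in vehicle and 77505 to 81045 in treated tissue, and its part in the Ugt2b value was not tested. High dose minus retinoic acid was -0.46 (adjusted p = 0.000439, 7.86% of 229 probes passed), but this pair also differs in array batch, and without any centring of the arrays the difference was 0.29. Ugt2b15 gave -0.05 and -0.05 at the low dose, 0.02 and -0.06 at the high dose and -0.01 and 0.10 under retinoic acid. UGT2B6 gave -0.13 and -0.07, then -0.01 and 0.26, then 0.30 and 0.17. None of these 6 groups passed, and the doses of EMD 82571 differed by 0.03 for Ugt2b15 with an interval from -0.28 to 0.34.

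In embryo liver the order of the members turned round, and UGT2B6 and Ugt2b15 fell under the high dose while Ugt2b stayed at its low level. UGT2B6 read -1.24 and -1.11, with vehicle signals of 4.47 and 4.00 times background beside treated signals of 2.29 and 1.98. Its mean was -1.18 ± 0.148, a 2.26-fold fall with a limma adjusted p of 2.45e-06. Ugt2b15 read -0.85 and -0.45, with vehicle signals of 3.14 and 2.09 beside treated signals of 2.07 and 1.49, and a mean of -0.65 ± 0.105 (1.57-fold lower, adjusted p = 4.63e-05). Both falls stand in a group in which 38.7% of 238 probes passed. Ugt2b read 0.09 and 0.03 and did not pass (0.06, adjusted p = 0.433). Its vehicle signal of 1.73 and 1.48 times background left little room to record a fall.

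The low dose left all 3 members near 0 in embryo liver, with 0.04 and 0.07 for Ugt2b, 0.05 and 0.02 for Ugt2b15 and 0.17 and -0.02 for UGT2B6, while 12.6% of 239 probes passed. High minus low dose was -1.25 ± 0.21 for UGT2B6 (interval -1.69 to -0.81, adjusted p = 0.000403) and -0.69 ± 0.149 for Ugt2b15 (adjusted p = 0.00329), beside 10.9% of 238 probes. The difference for UGT2B6 passed in 14 of 15 alternatives, and that for Ugt2b15 in 12 of 15. Without the high-dose replicate 1 it was -0.49 and no longer passed.

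Other enzymes fell in the same embryo livers, and the counts below stand beside 38.7% of 238 probes that passed in this group. Of 8 UGT1 probes 2 fell, UGT1A6 at -0.58 and UGT1A2 at -0.49, and of the 4 other conjugating enzymes Sult1b1, a sulfotransferase of phenols and thyroid hormone, fell to -0.82. The list of CYP2B and CYP3A held 1 rise, Cyp3a23-3a1 at 0.41, and 1 fall, Cyp3a18 at -0.42. Of 19 other P450 and oxidase probes 6 fell and none rose, among them Cyp7a1, which starts the conversion of cholesterol to bile acids, at -0.99. Of the 8 hepatocyte markers 1 rose and 3 fell, with a median of -0.15 beside -0.02 over all probes and a summed normalized level of 41091 to 45520 in vehicle and 38653 to 40130 in treated tissue. Of other cell type markers, 2 of 5 stromal and 1 of 3 leukocyte markers fell and 1 of 4 endothelial markers rose. The part of these cell types in the falls of UGT2B6 and Ugt2b15 was not tested.

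Retinoic acid lowered UGT2B6 and Ugt2b15 in embryo liver on few spots. UGT2B6 read -0.25 from 4 spots and -0.93 from 1 spot, a mean of -0.59 ± 0.148 (adjusted p = 0.00304), and the call was lost without the second array, which holds the 1 spot. Ugt2b15 read -0.31 from 3 spots and -0.23 from 1 spot, a mean of -0.27 (adjusted p = 0.0384), which stayed past the threshold in 6 of 13 alternatives and was lost without either array. In this group 50.4% of 228 probes passed. The spot files mark all 8 Ugt2b spots of these arrays as dim, so Ugt2b has no value there. High dose minus retinoic acid was -0.59 for UGT2B6 (adjusted p = 0.030) and -0.38 for Ugt2b15 (adjusted p = 0.0481, and 0.03 without centring), beside 41.4% of 227 probes and across different array batches. With single arrays left out these differences ran from -0.92 to -0.25 and from -0.57 to -0.18, and each call was lost in 3 of 4 such fits. They passed in 6 of 15 and in 5 of 14 alternatives.

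In embryo bone neither dose of EMD 82571 moved a member past the threshold, with group means between -0.15 and 0.14, while 12.2% of 238 probes passed at the low dose and 31.1% of 238 at the high dose. Under retinoic acid UGT2B6 read -0.73 from 2 spots and -1.55 from 1 spot (mean -1.14, adjusted p = 1.98e-06, or 0.0685 in a fit of that group alone), and Ugt2b read -0.87 from 2 spots on the only array with usable spots. With marked spots kept, Ugt2b stood at -0.14. Of 235 probes 53.6% passed in that group, and the non-member Ugt2b35 was at -1.19. Ugt2b15 had no usable spot there, since all 8 were marked as dim.

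In whole embryo Ugt2b had 1 call, under retinoic acid. The arrays gave -0.24, -0.23, -0.10 and -0.27 (mean -0.21, adjusted p = 0.000545, vehicle channel above background on 2 of 4 arrays), beside 34.1% of 232 probes. With marked spots kept the mean was -0.12 and did not pass, and it passed in 13 of 17 alternatives. The high dose gave -0.32 on the 1 array with usable spots, in a group where 6.9% of 232 probes passed. The low dose gave -0.47 from 1 spot on 1 array, whose treated channel was not well above background. In that group 15.1% of 219 probes passed. With marked spots kept these values were -0.22 and -0.07. Ugt2b15 and UGT2B6 passed in none of the whole embryo groups.

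The response of Ugt2b in maternal liver changed with the day. Day 20 minus day 12 was -1.42 ± 0.0772 at the low dose (adjusted p = 6.18e-11), -0.45 ± 0.0772 at the high dose (adjusted p = 0.000463) and -1.46 ± 0.0669 under retinoic acid (adjusted p = 1.57e-12). The backgrounds of these contrasts were 14.3% of 231, 12.5% of 232 and 21% of 229 probes. For EMD 82571 the day goes with the array batch (A on day 12, C on day 20), and day and batch cannot be told apart. For retinoic acid batch B held arrays of both days, with 1.20 and 1.19 on day 12 and -0.19 and -0.26 on day 20. Within batch B alone the difference was -1.43 (adjusted p = 1.01e-10).

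Between maternal and embryo liver of day 20, which share batch C for EMD 82571, the high dose separated the members. Embryo minus maternal liver was -1.30 ± 0.21 for UGT2B6 (adjusted p = 6.54e-05) and -0.63 ± 0.149 for Ugt2b15 (adjusted p = 0.00241), and 0.75 ± 0.0772 for Ugt2b (adjusted p = 4.78e-07), beside 30.7% of 238 probes. Without the high-dose embryo liver replicate 1 the value of Ugt2b15 was -0.43 and did not pass (adjusted p = 0.0796). Ugt2b fell in the mother, where its vehicle level was high, and UGT2B6 and Ugt2b15 fell in the embryo, where their vehicle levels were lower. In embryo liver at this dose the Ugt2b vehicle signal was only 1.73 and 1.48 times background. That left little room to record a fall of Ugt2b there, so its difference of 0.75 rests on the maternal fall. At the low dose none of the 3 differences between the livers passed (0.21, 0.08 and 0.17 for Ugt2b, Ugt2b15 and UGT2B6, beside 13.9% of 238 probes).

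Under retinoic acid, embryo minus maternal liver was -0.83 ± 0.21 for UGT2B6 (adjusted p = 0.00678, 28% of 225 probes passed) and -0.32 ± 0.149 for Ugt2b15 (adjusted p = 0.109), both within batch B. The value of UGT2B6 was -0.49 without embryo liver replicate 2, the array with 1 spot, and the call was lost there and without maternal liver replicate 1. Bone minus embryo liver at the high dose was 1.06 for UGT2B6 and 0.75 for Ugt2b15 (adjusted p = 0.000547 for each, 38% of 237 probes passed). In bone their median vehicle signals were 1.44 and 1.45 times background, which left little room to record a fall there. Bone minus embryo liver under retinoic acid was -0.55 for UGT2B6 (adjusted p = 0.0345), where 49.6% of 224 probes passed and the arrays lay in different batches. It ran from -0.96 to -0.14 with single arrays left out, was lost without bone replicate 2 or embryo liver replicate 1, and passed in 7 of 15 alternatives. Whole embryo minus maternal liver of day 12 under retinoic acid was -1.44 for Ugt2b (adjusted p = 1.05e-13) and -0.38 for Ugt2b15 (adjusted p = 0.0183), beside 24.1% of 232 probes. In whole embryo these probes too were near background, with median vehicle signals of 1.47 and 1.37 times background.

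**Figure D3:**
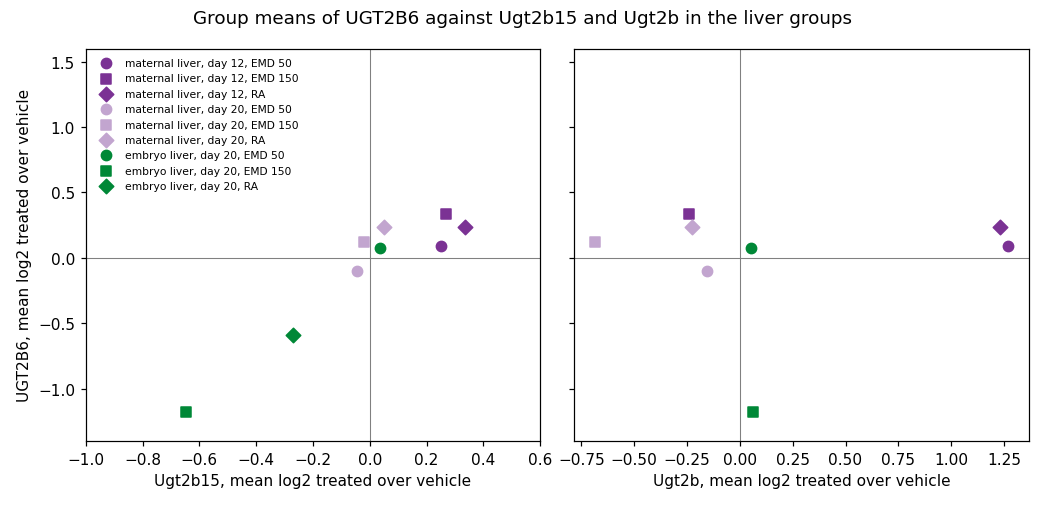
Group mean log2 ratio of treated over vehicle of UGT2B6 against Ugt2b15 and against Ugt2b in the liver groups, both axes in log2 units. Ugt2b15 and UGT2B6 lie near a common line over the liver groups, while the 2 highest Ugt2b groups sit beside UGT2B6 values of 0.09 and 0.23.

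Over the group means of the 9 liver groups Ugt2b15 and UGT2B6 correlated at 0.94. Over the 8 liver groups with an Ugt2b value, Ugt2b correlated at 0.07 with UGT2B6 and at 0.39 with Ugt2b15. The lowest liver values of Ugt2b15 and UGT2B6 were in embryo liver, at -0.65 and -1.18 under the high dose. Under retinoic acid they were there at -0.27 and -0.59. Ugt2b was near background in that high-dose group and had no value in that retinoic acid group. Correlations without these groups were not computed. The correlations describe groups that in part share an array batch, and probes of near-identical genes may read the same transcript. Among 208 probes, the 3 most like Ugt2b over 14 groups were Cyp3a9 at 0.84, Tp53bp1 at 0.72 and Timp3 at 0.67. Those most like Ugt2b15 were UGT2B6 at 0.86, Nat1 at 0.74 and Egfr at 0.67. Those most like UGT2B6, over 15 groups and 207 probes, were Nat1 at 0.87, STE at 0.73 and UGT1A5 at 0.73.

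Ugt2b35, a UGT2B-named probe outside the set, did not pass in any maternal liver group (0.22, 0.28 and 0.11 on day 12 and 0.04, 0.03 and 0.08 on day 20 for the low dose, the high dose and retinoic acid). In embryo liver it gave 0.02 and 0.06 at the low and the high dose of EMD 82571, and -0.37 under retinoic acid (adjusted p = 0.00569).

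**Figure D4:**
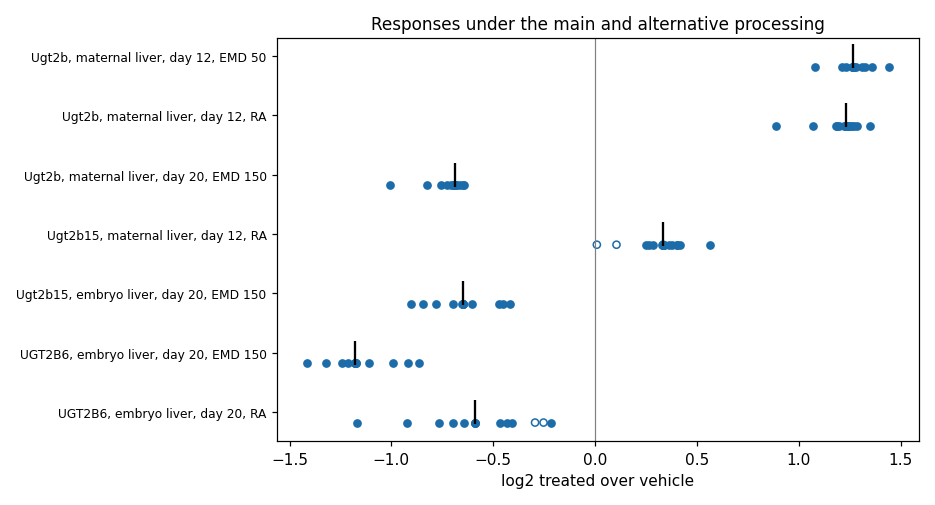
Selected liver responses of the members (log2 treated over vehicle, horizontal axis) under each processing alternative, with the reported value as a black tick. Filled dots had an adjusted p under 0.05 and open dots did not. The Ugt2b response in maternal liver of day 12 at the low dose stays between 1.08 and 1.44.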

How the data were processed

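The deposited spot files give, per the file headers, mean spot intensity and mean local background intensity in Cy3 and Cy5, without subtraction, and a mark for spots set aside (766 by hand, 4521 as dim, 636 as uneven, 28893 unmarked). The background was corrected by normexp with an offset of 50, each array was normalized by global loess, and the unmarked spots of a probe (4 on a full array) were averaged. Fold changes of dim probes are understated by the offset. Spots brighter than local background plus 2 SD counted as above background, and so did probes with a share of at least 0.5 such spots among usable ones. The 239 probes above background on at least 2 arrays were tested in a single limma fit (R 4.3.3, limma 3.58.1) with 15 group means. Benjamini-Hochberg adjustment ran over all probes within each of 37 contrasts, at a threshold of 0.05. Tests are two-sided. Vehicle levels were log2 Cy3 after loess and Aquantile, with array batch as a term.

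The authors' deposited series table holds log2 ratios. It matched the spot files in reversed grid order without background subtraction (correlation per array 0.568 to 0.991, median 0.902), treated over vehicle and not centred (column medians -0.705 to 0.334), and served as an alternative. How it was made is not given in the sources used here.

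The members, gene lists and tests were chosen with earlier results of these data known. All 3 members are reported in every group, with up to 4 genes per list by smallest p and the 3 probes most correlated with each member. In simulated data on 239 probes, changes were placed only in maternal liver of day 12 at the low dose, on probes with a value on every array there. The noise was normal and independent between arrays, with no batch or dye effect. Changes of 0.5 on the log2 scale were recovered in 91.2% of cases and changes of 1 in 98%, and 6.43% of calls were false. These rates do not cover dim tissues, groups split over batches or probes read from few spots. No pair of arrays held identical values (0 found).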

Additional observations from a re-analysis of the deposited data

Results flagged for a closer look

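Of 33 tested differences in response between tissues or days, 13 passed the threshold (39.4%), beside 22.3% of 2774 over all probes. Of these 13, the 12 with both channels measured are listed here. Ugt2b responded differently on day 20 than on day 12 of maternal liver, by -1.42 at the low dose, -0.45 at the high dose and -1.46 under retinoic acid. Ugt2b also differed by 0.75 between embryo and maternal liver of day 20 at the high dose, and by -1.44 between whole embryo and maternal liver of day 12 under retinoic acid. Ugt2b15 differed by -0.63 between embryo and maternal liver and by 0.75 between bone and embryo liver at the high dose, and by -0.38 between whole embryo and maternal liver under retinoic acid. UGT2B6 differed by -1.30 between embryo and maternal liver and by 1.06 between bone and embryo liver at the high dose. Under retinoic acid these differences of UGT2B6 were -0.83 and -0.55. The members were near background in bone and whole embryo, and so was Ugt2b in embryo liver, which left little room to record a fall there. Of 19 sets of 4 to 10 arrays examined, 0 held an array far from the others.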

How the results depend on the processing

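Each response compares treated and vehicle RNA within an array. Arrays could not be paired between groups because the labels give no replicate numbers, and those used here follow the order of the sample records. The rise of Ugt2b in maternal liver of day 12 at the low dose (1.08 to 1.44) and under retinoic acid (0.89 to 1.35), its fall on day 20 at the high dose (-1.01 to -0.65), and the falls of Ugt2b15 (-0.90 to -0.42) and UGT2B6 (-1.42 to -0.87) in embryo liver at the high dose kept direction and call under every alternative run. Of 517 recomputed responses, single arrays left out aside, 453 kept their side of the threshold, 414 of them with the same sign, 35 lost the call, 27 gained one and 2 turned. Of 306 differences between doses or compounds 283 kept their side, 256 with the same sign, and of 361 between tissues or days 315 and 289. The number of calls among member differences between doses or compounds was 10, against 4 with no centring and 3 in the deposited ratios, and between tissues or days 13, against 6 and 8. Of each main count, 1 call rests on a group with 1 array.

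Among the liver calls past the threshold, these were lost, and the cause was not tested. The fall of Ugt2b on day 12 at the high dose was -0.24 with plain background subtraction, -0.14 with median centring, -0.16 with no centring and -0.019 in the deposited ratios. The rise of Ugt2b15 on day 12 under retinoic acid was 0.0089 with no centring, 0.33 in a fit of that group alone and 0.11 in batch A alone. The fall of Ugt2b on day 20 under retinoic acid was -0.19 with plain subtraction, -0.23 with batch as a random block, -0.23 in a fit of that group alone and -0.24 in the deposited ratios. In embryo liver under retinoic acid Ugt2b15 was -0.15 without background subtraction, -0.31 with plain subtraction, -0.19 with marked spots kept, -0.15 with the median of spots and -0.35 in the deposited ratios, where UGT2B6 was -0.29. Of the dose differences, that of Ugt2b on day 20 was -0.99 with no centring and -0.83 in the deposited ratios, that of Ugt2b15 in embryo liver -0.50 and -0.40, and that of UGT2B6 there -1.06 with no centring.

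With no centring, values turned for Ugt2b15 (-0.96 against 0.05) and UGT2B6 (-0.74 against 0.24) on day 20 under retinoic acid, and for high dose minus retinoic acid of Ugt2b on day 20 (0.29) and of Ugt2b15 in embryo liver (0.030). In batch B alone the vehicle level of Ugt2b was higher on day 20 than on day 12 by 1.31, a call gained, and embryo minus maternal liver of UGT2B6 was -0.31, a call lost. With single arrays left out, the fall of Ugt2b on day 12 at the high dose ran from -0.24 to -0.24 and that on day 20 under retinoic acid from -0.26 to -0.19, and both calls were lost with either array left out. In embryo liver the retinoic acid values ran from -0.31 to -0.23 for Ugt2b15, its call lost with either array left out, and from -0.93 to -0.25 for UGT2B6, and high minus low dose of Ugt2b15 from -0.88 to -0.49. A lone array left in a group was assumed to vary like the other groups. Members dim in bone and whole embryo, and Ugt2b dim in embryo liver, limit what could be read there.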
